A study of Mus musculus with 6 samples.

Results

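The genes described here encode 10 surface proteins, ligands and receptors, that take part in stimulating or restraining signals between macrophages and T cells. They are *Cd80*, *Cd86*, *Icosl*, *Cd40*, *Tnfsf9*, *Cd274*, *Pdcd1lg2*, *Cd276*, *Vsir* and *Havcr2*. They were chosen by symbol, with earlier results of these data known, among the 24445 genes that the deposited table could be matched to. Where a gene had several transcript rows, the row with the largest sum over all 6 libraries represents it. All 10 were among the 12023 genes that passed a filter on low counts and were tested.

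A T cell that has recognized antigen also reads signals on the presenting cell. CD80 and CD86 engage CD28 to promote activation, and engage CTLA-4, which restrains it. ICOS ligand and 4-1BB ligand act on ICOS and 4-1BB, while CD40 works in the other direction, since it is a receptor on the macrophage that is triggered by CD40 ligand of T cells. PD-L1 (*Cd274*) and PD-L2 (*Pdcd1lg2*) engage the inhibitory receptor PD-1. VISTA (*Vsir*) and B7-H3 (*Cd276*) belong to the same B7 family, and TIM-3 (*Havcr2*) is an inhibitory receptor found on exhausted T cells and on myeloid cells. PD-L2 is known as a protein that IL-4 induces in macrophages through the transcription factor STAT6.

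RNA was sequenced from bone marrow-derived macrophages (BMDMs), that is, bone marrow precursors of female C57Bl/6J mice cultured for 7 days with L929-conditioned medium, and all libraries used here received 100 U/mL of IL-4 for 24 h. The 3 AclyM-KO libraries came from mice with loxP-flanked *Acly* and Cre recombinase driven by *Lyz2*, a promoter active in myeloid cells generally, and the 3 Ctrl libraries came from floxed littermates that lacked Cre. The mice's age is not given in the sources used here, and naive macrophages were not analysed here. The study calls its replicates biological in one place and technical, from pooled mice, in another, so the p-values measure the spread between libraries, which may be technical. The question is how loss of ATP citrate lyase, the cytosolic enzyme that makes acetyl-CoA from citrate, alters IL-4-activated macrophages.

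Each library held 12151975 to 15587283 counts. The targeted gene *Acly* was counted 4917, 3925 and 4606 times in Ctrl against 2140, 2078 and 1978 times in AclyM-KO, so its level was reduced in every AclyM-KO library while transcript remained. The loxP sites flank only part of the gene, and counts are per transcript. Remaining transcript with and without that part therefore cannot be told apart here. Macrophage markers were abundant in every library. Their summed level was 13779 to 15120 CPM (counts scaled for library size) in Ctrl and 11500 to 11958 CPM in AclyM-KO, and all 8 were tested. With an adjusted p under 0.05 by edgeR, 4 of the markers were lower and 1 was higher, against 12.6% and 12.4% of all genes tested, and 3 did not pass. Among them *Lyz2*, whose locus carries Cre in AclyM-KO only, fell from 6595 to 4142 CPM (log2 fold change -0.67). This 1 gene made up most of the fall in the sum, and the part of the Cre allele in it was not tested. *Mertk* fell by 0.73, *Itgam* by 0.28 and *Csf1r* by 0.20 on the log2 scale, and *Adgre1* rose by 0.33. In such bulk samples, fewer cells of a type and less RNA per cell cannot be told apart.

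Of the 10 genes, *Cd80* and *Tnfsf9* were called lower in AclyM-KO and *Cd40* was called higher. A call required an adjusted p-value under 0.05 in edgeR's quasi-likelihood test, with Benjamini-Hochberg adjustment over all genes tested, and a change larger than 0.58 on the log2 scale. Among all genes tested, 2.57% were called lower and 2.98% higher. *Havcr2*, *Vsir*, *Pdcd1lg2* and *Cd274* also had an adjusted p under 0.05 and were lower, but by less than the fold limit. Counting changes of any size, 6 of the 10 were lower and 1 was higher, against 12.6% and 12.4% of all genes tested. The remaining 3, *Cd86*, *Icosl* and *Cd276*, did not pass. The median log2 fold change of the 10 genes was -0.21, and that of all genes tested was 0.0014. In CPM, the groups did not overlap for 7 of the 10 genes, as was the case for 40.2% of all genes tested.

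**Figure D1:**
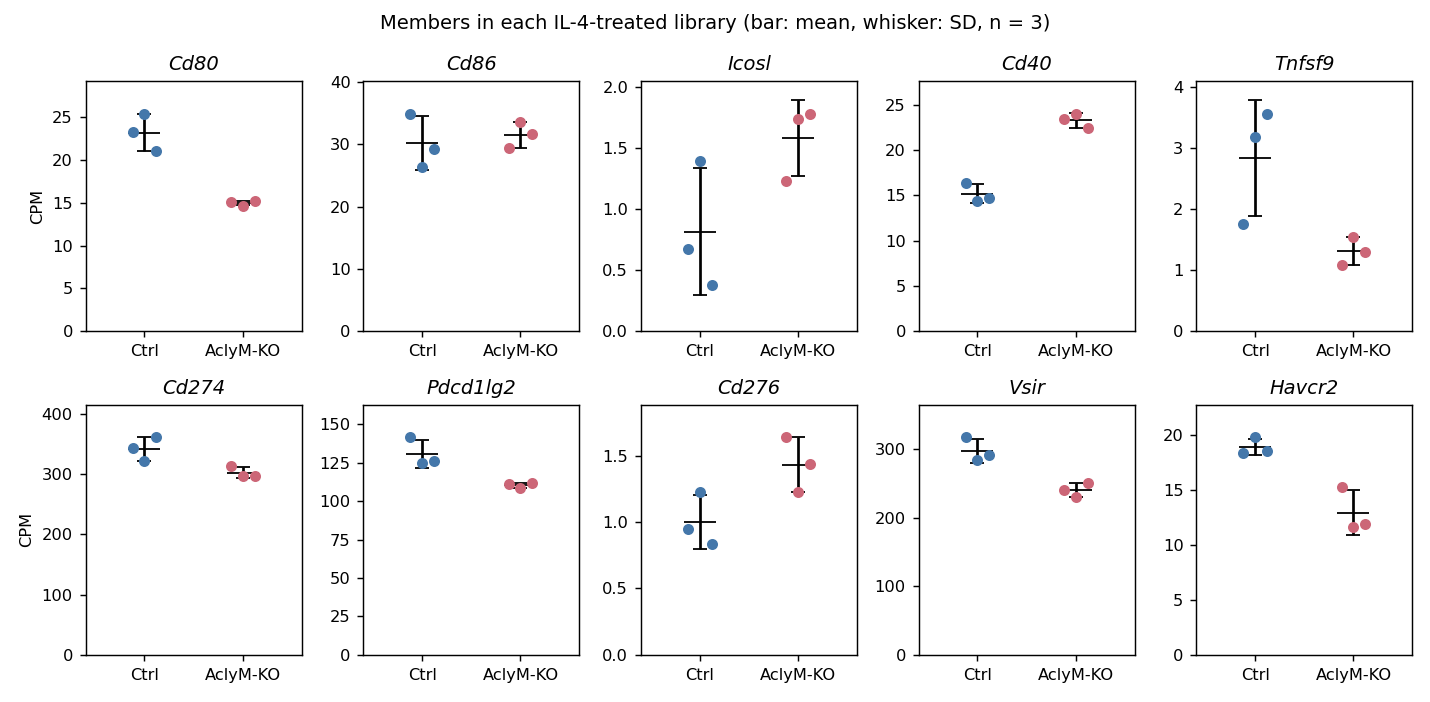
CPM (y axis, linear from 0, scaled separately in each panel) of the 10 genes in each IL-4-treated library, with Ctrl in blue and AclyM-KO in red. The horizontal bar is the mean and the whisker the SD of 3 libraries. The groups stand fully apart for 7 genes and overlap for *Cd86*, *Icosl* and *Cd276*.

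The stretches of 250 bases just upstream of the RefSeq start (build GRCm38.p6) are shown for *Cd80* and *Havcr2*, both lower in AclyM-KO, and for the neighbours *Cd274* and *Pdcd1lg2*, which bind the same receptor. They were searched on both strands for TTCNNNNGAA, the spacing bound by STAT6, and for TGANTCA, an AP-1 element, and capitals mark the matches. All are read 5′ to 3′ on the plus strand. The *Cd80* stretch lies inside the gene as GENCODE M21 annotates it, from 38455561, since the RefSeq start is further downstream.
*Cd80*, chr16:38458683-38458932: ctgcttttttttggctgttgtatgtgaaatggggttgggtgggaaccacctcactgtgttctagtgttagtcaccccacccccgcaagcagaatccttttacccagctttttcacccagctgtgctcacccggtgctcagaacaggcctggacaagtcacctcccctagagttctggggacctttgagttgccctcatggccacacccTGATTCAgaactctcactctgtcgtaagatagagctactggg
*Havcr2*, chr11:46454681-46454930: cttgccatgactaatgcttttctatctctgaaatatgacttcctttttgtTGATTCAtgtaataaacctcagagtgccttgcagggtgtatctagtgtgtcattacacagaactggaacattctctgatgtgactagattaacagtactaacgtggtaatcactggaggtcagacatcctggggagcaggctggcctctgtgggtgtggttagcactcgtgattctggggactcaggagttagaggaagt
*Cd274*, chr19:29367188-29367437: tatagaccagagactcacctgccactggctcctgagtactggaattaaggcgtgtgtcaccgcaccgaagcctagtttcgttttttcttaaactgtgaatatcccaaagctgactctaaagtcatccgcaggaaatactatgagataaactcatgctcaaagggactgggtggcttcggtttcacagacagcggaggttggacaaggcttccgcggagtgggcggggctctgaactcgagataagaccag
*Pdcd1lg2*, chr19:29410669-29410918: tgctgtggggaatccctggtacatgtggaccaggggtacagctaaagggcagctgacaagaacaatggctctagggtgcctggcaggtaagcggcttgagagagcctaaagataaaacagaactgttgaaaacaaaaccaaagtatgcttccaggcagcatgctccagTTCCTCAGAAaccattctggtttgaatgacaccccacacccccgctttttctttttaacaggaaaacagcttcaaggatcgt
The *Pdcd1lg2* stretch held TTCNNNNGAA 82 to 73 bases upstream of the start, and none of the other 6 members with a sequence held it. This motif occurred in 5.85% of 32851 mouse promoter stretches of the same length. TGANTCA was found 42 to 36 bases upstream of the RefSeq start of *Cd80* and 200 to 194 bases upstream of *Havcr2*, and in 6.75% of all stretches. No other member with a sequence held it, including *Vsir*, *Cd274* and *Pdcd1lg2*, which were also lower in AclyM-KO. The NF-kB-like pattern GGGNNNNNCC was found in *Cd276*, *Cd80*, *Icosl* and *Pdcd1lg2* and in 45.8% of all. ACGTG, the core recognized by HIF, was found in *Havcr2* and in 16.6% of all. GAAANNGAAA, the interferon response pattern, was found in none of the 7, and in 2.98% of all stretches. Such matches describe letters and do not show binding. The table of promoters used here has no entry for *Cd40*, *Cd86* or *Tnfsf9*.

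Among the B7 costimulators, *Cd80* was lower in AclyM-KO while *Cd86*, whose product binds the same receptors, did not pass the test. *Cd80* (chromosome 16, 38455561 to 38496335, plus strand, GRCm38 with GENCODE M21) had 344, 311 and 277 counts in Ctrl, against 221, 228 and 222 in AclyM-KO. All AclyM-KO libraries lay below all Ctrl libraries, and they were close to each other. The level was 23.2 ± 2.21 CPM in Ctrl and 15.0 ± 0.283 CPM in AclyM-KO (SD, n = 3), which is 64.5% of Ctrl. On the log2 scale the change was -0.63 (SE 0.0928, 95% interval -0.83 to -0.43), with an adjusted p of 1.45e-04 by edgeR. Without Ctrl replicate 2 it was -0.57, inside the fold limit, with an adjusted p of 2.15e-04 by edgeR.

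*Cd86* (chromosome 16, 36603869 to 36666081, minus strand) lies 1789480 bases before *Cd80*. It had 517, 322 and 386 counts in Ctrl, against 431, 522 and 462 in AclyM-KO. The groups overlapped, and the first Ctrl library was the highest of all 6 in CPM. Means were 30.2 ± 4.37 CPM in Ctrl and 31.5 ± 2.09 CPM in AclyM-KO. The log2 fold change was 0.058 (SE 0.0945, 95% interval -0.14 to 0.26, adjusted p = 0.701 by edgeR), and it turned to -0.03 when Ctrl replicate 2 was left out.

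Within each library, the ratio of *Cd86* to *Cd80* counts was therefore compared. It was 1.503, 1.04 and 1.39 in Ctrl and 1.95, 2.29 and 2.08 in AclyM-KO, with no overlap. The mean was 1.31 ± 0.245 in Ctrl and 2.11 ± 0.171 in AclyM-KO (two-sided exact permutation p = 0.10, the smallest that 3 against 3 libraries allow, and 0.133 adjusted over the 4 ratios computed). The design cannot take the p-value of such a ratio below 0.05. The ratio uses the same *Cd80* counts, so it is not separate support for the *Cd80* difference.

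*Icosl*, the ligand of ICOS (chromosome 10, 78069302 to 78083913, plus strand), was rare. It had 10, 17 and 5 counts in Ctrl, against 18, 27 and 26 in AclyM-KO, or 0.815 ± 0.520 and 1.58 ± 0.308 CPM. Ctrl replicate 2 exceeded AclyM-KO replicate 1 in CPM, and Ctrl replicate 3 stood lowest. The log2 fold change of 0.98 (SE 0.39, 95% interval 0.15 to 1.81) gave an adjusted p of 0.0788 by edgeR. Single libraries weighed on this result: without Ctrl replicate 2 the log2 fold change was 1.55 (adjusted p = 0.0123 by edgeR), and without Ctrl replicate 3 it was 0.65 (adjusted p = 0.273 by edgeR). Before TMM scaling, 2 Ctrl and 3 AclyM-KO libraries reached the level of 0.678 CPM that the filter on low counts used.

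In the TNF family, the receptor gene *Cd40* rose and the ligand gene *Tnfsf9* fell. *Cd40* (chromosome 2, 165055627 to 165072948, plus strand) had 242, 176 and 194 counts in Ctrl, against 343, 373 and 327 in AclyM-KO. Every AclyM-KO library lay above every Ctrl library, and the spread in each group was small. The level was 15.2 ± 1.05 CPM in Ctrl and 23.3 ± 0.803 CPM in AclyM-KO, which is 154% of Ctrl. This was a log2 fold change of 0.62 (SE 0.0882, 95% interval 0.43 to 0.80, adjusted p = 1.20e-04 by edgeR). *Cd40* was the only 1 of the 10 genes called higher. Its 5 RefSeq transcripts carried identical counts, so its isoforms cannot be told apart here. Without Ctrl replicate 2 the change was 0.575, inside the fold limit, with an adjusted p of 1.76e-04 by edgeR.

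*Tnfsf9*, encoding 4-1BB ligand (chromosome 17, 57105325 to 57107757, plus strand), was scarce. It had 26, 39 and 47 counts in Ctrl, against 16, 24 and 19 in AclyM-KO. In CPM these were 1.76, 3.19 and 3.57 against 1.09, 1.54 and 1.30, so the groups did not overlap, but the lowest Ctrl value lay near the highest AclyM-KO value. The mean in AclyM-KO was 46.3% of that in Ctrl, and the log2 fold change was -1.09 (SE 0.303, 95% interval -1.73 to -0.44, adjusted p = 0.0160 by edgeR). Of the exonic bases of *Tnfsf9*, 14.9% lie under exons of *Gm11110* on the other strand. The libraries were strand-specific, and whether the counting used strand is not given in the sources used here. The call was lost when Ctrl replicate 3 was left out (log2 fold change -0.89, adjusted p = 0.0807 by edgeR) and when AclyM-KO replicate 1 was left out (-0.97, adjusted p = 0.0648 by edgeR).

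Within each library, *Cd40* was also set against *Cd80*. The ratio of *Cd40* to *Cd80* counts was 0.703, 0.566 and 0.700 in Ctrl and 1.55, 1.64 and 1.47 in AclyM-KO. Its mean was 0.657 ± 0.0785 and 1.55 ± 0.0815, with no overlap between the groups (two-sided exact permutation p = 0.10, 0.133 adjusted over the 4 ratios). Since *Cd40* was higher and *Cd80* lower in every AclyM-KO library, this separation was fixed beforehand and adds no support to either difference. The ratio of *Cd274* to *Cd80* counts was 14.9 ± 2.27 in Ctrl and 20.2 ± 0.662 in AclyM-KO, with the same exact p and also without overlap. This ratio too uses the same *Cd80* counts and is not separate support for the *Cd80* difference.

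**Figure D2:**
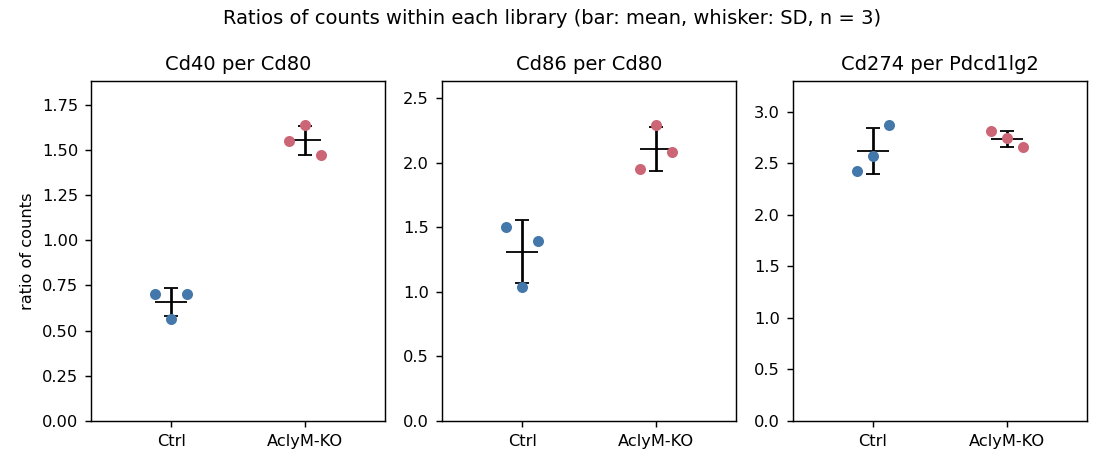
Ratios of counts within each library (y axis, linear from 0) for *Cd40* per *Cd80*, *Cd86* per *Cd80* and *Cd274* per *Pdcd1lg2*, with Ctrl in blue and AclyM-KO in red; the bar is the mean and the whisker the SD of 3 libraries. The first 2 ratios stand apart between the groups, and the third overlaps.

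The PD-1 ligands were abundant and slightly lower in AclyM-KO. *Cd274* (chromosome 19, 29367455 to 29388095, plus strand) had 5079, 3929 and 4758 counts in Ctrl, against 4592, 4627 and 4322 in AclyM-KO. After scaling these were 343, 321 and 361 CPM against 313, 298 and 296 CPM, so the groups lay just apart. The change was -0.18 on the log2 scale (SE 0.0516, 95% interval -0.29 to -0.067, adjusted p = 0.0203 by edgeR), or 88.4% of Ctrl. The test no longer passed when Ctrl replicate 3 (-0.14, adjusted p = 0.0803 by edgeR), AclyM-KO replicate 2 (-0.17, adjusted p = 0.0956) or AclyM-KO replicate 3 (-0.16, adjusted p = 0.0867) was left out. Of its exonic bases, 14.1% lie under exons of *AC119228.1* on the other strand.

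*Pdcd1lg2* starts 22824 bases after the end of *Cd274* (29410919 to 29471161, plus strand). It had 2094, 1529 and 1659 counts in Ctrl, against 1631, 1687 and 1627 in AclyM-KO. In CPM these were 141, 125 and 126 against 111, 109 and 111, with no overlap and with 1 Ctrl library above the other two. This gave a log2 fold change of -0.25 (SE 0.0555, 95% interval -0.36 to -0.13, adjusted p = 0.00443 by edgeR). The ratio of *Cd274* to *Pdcd1lg2* counts was 2.62 ± 0.226 in Ctrl and 2.74 ± 0.0796 in AclyM-KO (two-sided exact permutation p = 0.50, also after adjustment over the 4 ratios). These ratios overlapped. *Jak2*, the kinase gene that ends 54375 bases before *Cd274*, was higher in AclyM-KO by 0.26 on the log2 scale (SE 0.0486, adjusted p = 0.00130 by edgeR).

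*Vsir*, encoding VISTA (chromosome 10, 60346851 to 60372684, plus strand), had 4688, 3478 and 3829 counts in Ctrl, against 3512, 3569 and 3657 in AclyM-KO. Its level fell from 297 ± 17.1 to 240 ± 10.5 CPM, and the groups did not overlap. The change was -0.31 on the log2 scale (SE 0.0539, 95% interval -0.42 to -0.19, adjusted p = 6.27e-04 by edgeR). *Vsir* lies inside *Cdh23*, a gene of the other strand, with no shared exonic bases.

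*Cd276*, encoding B7-H3 (chromosome 9, 58524298 to 58555437, minus strand), had only 14, 15 and 11 counts in Ctrl, against 24, 19 and 21 in AclyM-KO. In CPM the highest Ctrl library slightly exceeded the lowest AclyM-KO library. The log2 fold change of 0.52 had an interval from -0.14 to 1.18 (SE 0.310, adjusted p = 0.247 by edgeR), which included both 0 and the fold limit. Of its exonic bases, 11.5% lie under exons of *Gm10657* on the other strand.

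*Havcr2*, encoding TIM-3 (chromosome 11, 46454935 to 46481255, plus strand), had 272, 242 and 245 counts in Ctrl, against 224, 181 and 174 in AclyM-KO. The Ctrl libraries lay between 18.4 and 19.8 CPM and the AclyM-KO libraries between 11.6 and 15.3 CPM, so the groups did not overlap, and the first AclyM-KO library was nearest to Ctrl. The mean fell to 68.4% of that in Ctrl. A log2 fold change of -0.55 (SE 0.111, 95% interval -0.78 to -0.31, adjusted p = 0.00209 by edgeR) placed it just inside the fold limit, as *Cd40* and *Cd80* were just outside it. Without AclyM-KO replicate 1 it was -0.68, past the limit (adjusted p = 6.87e-04 by edgeR). For all 4 of *Cd80*, *Cd40*, *Tnfsf9* and *Havcr2*, the interval held the limit itself.

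**Figure D3:**
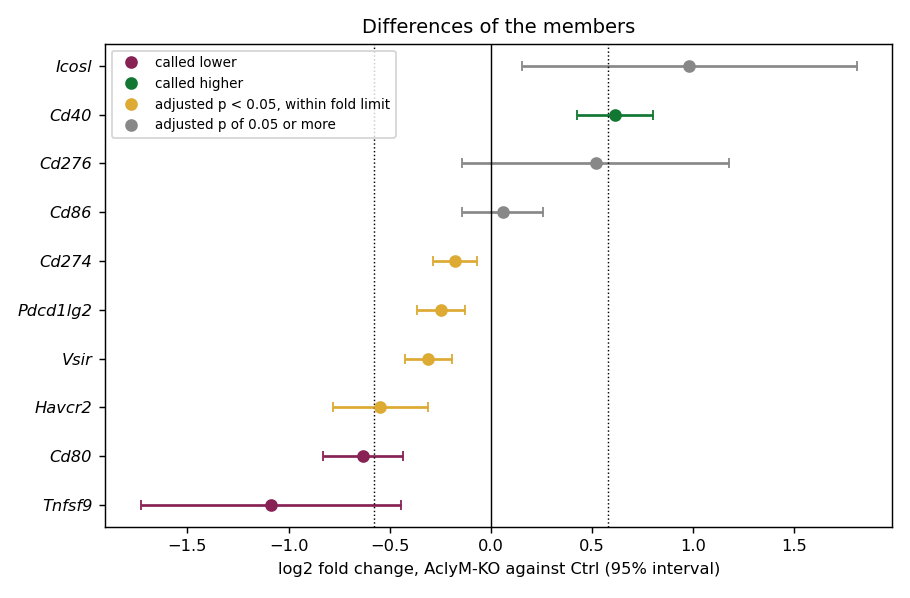
Log2 fold change of AclyM-KO against Ctrl (x axis) for the 10 genes, with 95% intervals from the edgeR fit. Dotted lines mark the fold limit of 0.58 in either direction. *Tnfsf9* and *Cd80* lie below the lower limit, *Cd40* and *Icosl* lie above the upper limit, of which *Icosl* did not pass the test, and the intervals of *Cd86* and *Cd276* include 0.

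Levels can be compared between genes only per transcript length, and were set in order as CPM per kilobase. In Ctrl, *Cd274* was highest at 94.4 ± 5.50, followed by *Pdcd1lg2* at 79.3 ± 5.61 and *Vsir* at 61.4 ± 3.54 CPM per kilobase. Thus 3 checkpoint ligands headed the order, and they carried 84.3% to 85.9% of the summed CPM per kilobase of the 10 genes in each library. *Cd80* (13.7 ± 1.30) and *Cd86* (11.9 ± 1.72) came next and overlapped. They were followed by *Havcr2* (6.95 ± 0.280), *Cd40* (5.08 ± 0.351), *Tnfsf9* (2.20 ± 0.740) and then *Icosl* (0.290 ± 0.185) and *Cd276* (0.278 ± 0.0561), the last 2 of which overlapped.

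In AclyM-KO, the order of the first 3 genes was the same, at 83.5 ± 2.61, 67.0 ± 0.998 and 49.5 ± 2.17 CPM per kilobase. Below them, *Cd86* at 12.4 ± 0.824 stood clear of *Cd80* at 8.81 ± 0.166, and *Cd40* at 7.79 ± 0.269 stood above *Havcr2* at 4.76 ± 0.744. In Ctrl, *Havcr2* stood above *Cd40*, and *Cd80* and *Cd86* overlapped. The length used for *Cd40* was that of its longest transcript, 2986 bases, and its place would move up if the transcript of 668 bases were the one made.

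**Figure D4:**
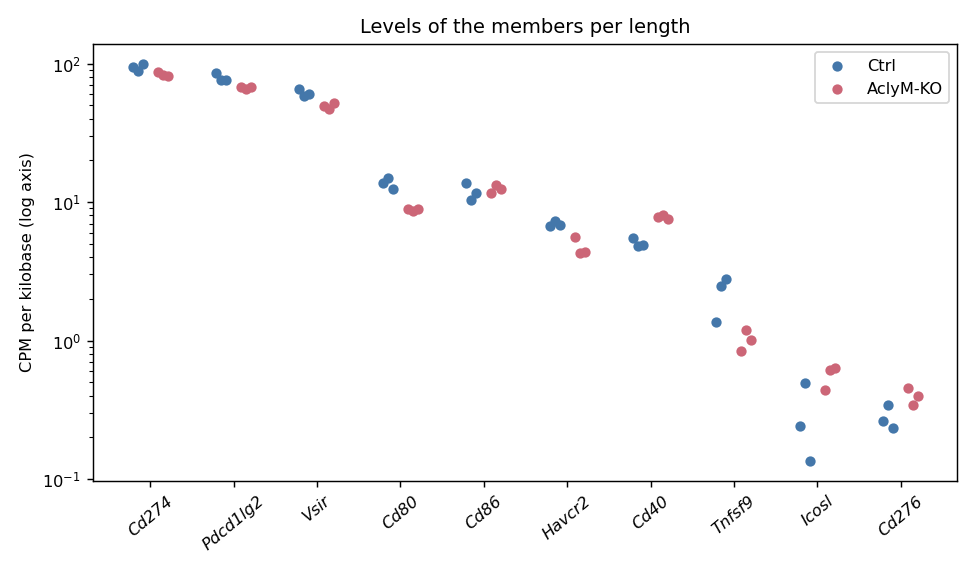
Level of each gene as CPM per kilobase of transcript (y axis, log scale) in each library, ordered by the Ctrl mean, with Ctrl in blue and AclyM-KO in red. *Cd274*, *Pdcd1lg2* and *Vsir* lie well above the others, and *Icosl* and *Cd276* lie at the bottom.

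Other ligands and receptors of the same kind were taken as 3 companion lists, of which 19 of 30 genes were tested. Of these, 1 was called lower, 1 was called higher, 4 were lower and 1 was higher within the fold limit, 12 did not pass, and the median log2 fold change was -0.13. Among all genes tested, 2.57% were called lower and 2.98% higher, and at any size 12.6% were lower and 12.4% higher. The counts of calls are therefore not read as a trait of these lists. The gene called lower was *Nectin2*, a ligand of TIGIT and CD226. It had 154, 131 and 136 counts in Ctrl, against 89, 101 and 107 in AclyM-KO, without overlap (log2 fold change -0.66, SE 0.129, adjusted p = 0.00163 by edgeR). The gene called higher was *Cd200*, whose product engages an inhibitory receptor on myeloid cells. It had 47, 61 and 43 counts in Ctrl, against 97, 107 and 86 in AclyM-KO, also without overlap (log2 fold change 0.78, SE 0.189, adjusted p = 0.00720 by edgeR).

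Among the other TNF family genes, 7 of 10 were tested and only *Tnfsf13*, encoding APRIL, passed, with a log2 fold change of -0.36 (adjusted p = 3.88e-04 by edgeR). Of its exonic bases, 69.9% overlap other genes, which makes its counts uncertain. *Tnfsf4*, encoding OX40 ligand, had a log2 fold change of -0.88 (adjusted p = 0.156 by edgeR), and *Tnfrsf14*, encoding HVEM, one of -0.22 (adjusted p = 0.242 by edgeR). *Lgals9*, encoding the TIM-3 ligand galectin-9, was at 106 CPM in Ctrl and 107 CPM in AclyM-KO.

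In 2 lists of related signalling and regulatory genes, no gene was called. Since only 2.57% of all genes tested were called lower and 2.98% higher, this absence is not read as a trait of these lists. At any size, 12.6% of all genes tested were lower and 12.4% higher. Of 19 genes of CD40 and NF-kB signalling, all were tested, and 5 were lower and 2 higher within the fold limit, with a median log2 fold change of -0.019. Those with the lowest p-values were *Ikbkg*, the regulatory subunit of the IkB kinase complex (0.23, adjusted p = 0.00125 by edgeR), *Tnfaip3*, which encodes the NF-kB inhibitor A20 (-0.31, adjusted p = 0.00499 by edgeR), and *Nfkb1* (-0.19, adjusted p = 0.00792 by edgeR). Of 17 genes of PD-L1 and PD-L2 regulation, 4 were lower and 2 higher within the limit, with a median of -0.079. *Ifngr1*, a chain of the interferon gamma receptor, fell most, from 189 to 132 CPM (log2 fold change -0.52, SE 0.0548, adjusted p = 5.68e-06 by edgeR). *Cmtm6*, whose product keeps PD-L1 at the cell surface, rose by 0.21 (adjusted p = 0.00768 by edgeR).

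**Figure D5:**
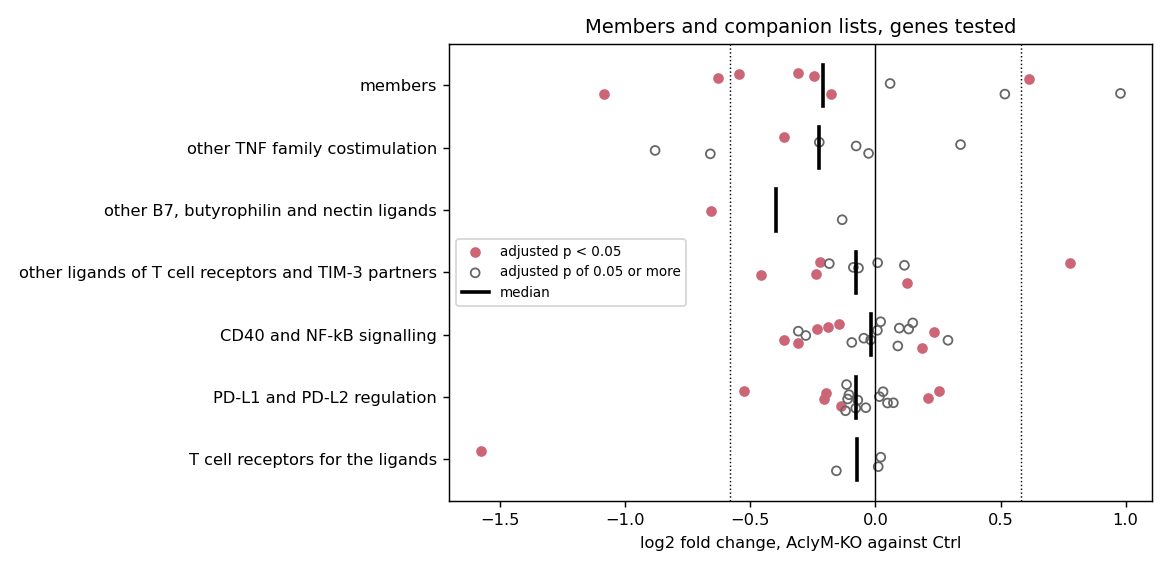
Log2 fold change of AclyM-KO against Ctrl (x axis) of each tested gene in the 10 members, the companion lists, the signalling lists and the T cell receptors for the ligands. Filled points have an adjusted p under 0.05, the thick bar is the median, and dotted lines mark the fold limit. Past it and filled are 3 members, *Nectin2*, *Cd200* and *Lag3*. Of these, *Lag3* passed the filter on low counts only through Ctrl.

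The receptors that T cells use for these ligands were mostly at or near 0, with *Ctla4* and *Cd40lg* at 0 counts in every library. Of 13 such genes 4 passed the filter and were tested. *Lag3* was called lower from few counts, 12, 15 and 27 in Ctrl against 4, 7 and 9 in AclyM-KO (log2 fold change -1.58, SE 0.444, adjusted p = 0.0171 by edgeR). No AclyM-KO library reached the 0.678 CPM of the filter on low counts. *Lag3* thus entered the test only through Ctrl, the group where it was higher, and its call is not used as support. *Cd28* was the exception in level, at 501 CPM in Ctrl and 505 CPM in AclyM-KO (log2 fold change 0.011, adjusted p = 0.880 by edgeR).

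Markers of other cell types moved with some of the groups. Neutrophil markers summed to 12.1 to 14.9 CPM in Ctrl and 19.4 to 21.4 CPM in AclyM-KO, with *S100a8* and *S100a9* called higher, 3 of 7 genes tested and *Ly6g* at 0 or 1 count in a library. T and NK cell markers summed to 15.5 to 18.4 CPM and 10.9 to 13.4 CPM, nearly all of it *Cd4*, while the defining *Cd3e* had at most 2 counts in a library. Dendritic cell markers summed to 3.31 to 4.50 CPM and 4.32 to 5.28 CPM, with 2 of 8 tested, *Cd209a* called higher and the defining *Flt3* at 0 or 1 count in a library. *Cd209a* had only 3, 3 and 6 counts in Ctrl, against 12, 16 and 15 in AclyM-KO. It passed the filter on low counts only through AclyM-KO, the group where it was higher, so its call is not used as support. B cell markers summed to 130 to 144 CPM and 139 to 145 CPM, mostly *Blnk*, and *Cd79b* was called lower. Stromal markers stayed at or below 1.30 CPM in sum. The part of these cells in the differences of *Cd40*, *Cd80* and *Tnfsf9* was not tested.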

How the data were processed

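Strand-specific mRNA libraries were sequenced by the authors and aligned to mm10. The submitters' processing notes name CASAVA 1.8.2 and STAR 2.5.2b. The deposited table holds unnormalized read counts per RefSeq transcript in 35745 rows, and the counting program is not given in the sources used here. Rows were named through the RefSeq table of GRCm38.p6 (35440 rows) or GENCODE M21 (188 rows). The 117 unnamed rows, which held 0.370% to 1.38% of counts, were left out. Several rows existed for 6089 genes, and the row with the highest total was kept.

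Counts were filtered with filterByExpr, TMM-scaled and tested with edgeR 4.0.16 in R 4.3.3 (glmQLFit and glmQLFTest, genotype as the only term). CPM uses TMM-scaled library sizes, and errors are SDs over 3 libraries. The common biological coefficient of variation was 0.0588. Alternatives were DESeq2 1.42.0 (the tool of the study), limma-voom (limma 3.58.1), other scalings, filters and transcript rows, glmTreat, a replicate block and the removal of each library. All 10 members were named. From each companion list, called genes, or otherwise at most the 3 of lowest p, were named, and receptors and markers were given by sum with the most abundant genes. *Lgals9* and single markers named beyond this rule were chosen after their values were seen. The members and lists were chosen with earlier results of these data known, and the motifs after a look at the promoters. Sequences are from RefSeq and were found for 7 of 10 members.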

Additional observations from a re-analysis of the deposited data

How the results depend on the processing

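The counts of 2 members called lower and 1 called higher, and of 6 lower and 1 higher at any size, were recomputed under each alternative. Without a filter on low counts, 2 members were called higher and 2 were higher at any size, since *Icosl* then passed (log2 fold change 0.97, adjusted p = 0.0478 by edgeR). Tested with glmTreat against the fold limit itself, 0 members were called lower and 0 were called higher. Among all 12023 genes tested, this setting called 41 lower and 77 higher. Leaving out each library in turn gave 1 to 2 members called lower, 4 to 6 lower at any size and 1 to 2 higher at any size. Without Ctrl replicate 2, *Cd80* (-0.57) and *Cd40* (0.575) kept adjusted p-values of 2.15e-04 and 1.76e-04 by edgeR but fell inside the limit, *Icosl* passed, and *Cd86* changed sign. Across the removals *Cd86* ran from -0.0332 to 0.179. In all 16 alternatives other than glmTreat, *Cd80*, *Cd40*, *Pdcd1lg2*, *Vsir* and *Havcr2* had an adjusted p under 0.05, and *Cd86* and *Cd276* did in none.

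The labels' replicate numbers are not said to pair libraries, and correlations of same-numbered deviations were -0.065, 0.050 and -0.031. Only replicate 2 of each group correlated best with its own number in the other group. A fit with a replicate block gave 2 members called lower, 1 called higher, and 6 and 1 at any size. Depth limits *Icosl*, *Cd276* and *Tnfsf9*, which had at most 47 counts in a library.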
